A study of Homo sapiens with 16 samples.

Results

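The levels of 9 enzymes of ketamine and estradiol metabolism were read out of an RNA-seq count table of HMC3 cells, a human line established from microglia. They were chosen by symbol: CYP2B6, CYP3A4, CYP3A5, CYP2A6, CYP1A1, CYP1B1, CYP19A1, POR and SULT1E1, 9 of the 25370 genes in the table. All 9 had a row, and 4 of them were detected. Cells were exposed for 24 h to vehicle, to 0.1 nM estradiol (E2), to 400 nM ketamine, to 400 nM (2R,6R)-hydroxynorketamine, written (2R,6R)-HNK, or to 400 nM of its enantiomer (2S,6S)-HNK. Each of the 3 drugs was also given together with 0.1 nM E2, and all groups were kept in medium without serum and phenol red. There were 2 libraries for each of the 8 conditions, 16 in all.

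Cytochromes P450 are heme enzymes of the endoplasmic reticulum that oxidize drugs and steroids, and POR, NADPH-cytochrome P450 oxidoreductase, hands them the electrons they need. In liver, CYP2B6 and CYP3A4, with help from CYP3A5 and CYP2A6, remove the N-methyl group of ketamine to give norketamine, and CYP2A6 and CYP2B6 take part in the hydroxylation that leads to the HNKs. CYP19A1, aromatase, makes estrogens from androgens. CYP1A1 and CYP1B1 hydroxylate E2, mainly at different ring positions, and give catechol estrogens. SULT1E1 sulfates E2 and thereby inactivates it. CYP1A1 and CYP1B1 are both classical targets of the aryl hydrocarbon receptor AHR.

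Of the 9 enzymes, 7 had an entry in the promoter table of RefSeq on GRCh38.p14. Shown here are the 250 bases before the transcription start of CYP1A1 and CYP3A5, chosen because the largest fold changes in E2+ketamine as counted were theirs; after a correction for GC content and length, described further on, CYP1B1 moved more than CYP3A5. The capitals mark GCGTG, the core bound by AHR and its partner ARNT, searched on both strands. The CYP1A1 window lies at chr15:74725529-74725778 and the CYP3A5 window at chr7:99679997-99680246, both on the minus strand.
CYP1A1: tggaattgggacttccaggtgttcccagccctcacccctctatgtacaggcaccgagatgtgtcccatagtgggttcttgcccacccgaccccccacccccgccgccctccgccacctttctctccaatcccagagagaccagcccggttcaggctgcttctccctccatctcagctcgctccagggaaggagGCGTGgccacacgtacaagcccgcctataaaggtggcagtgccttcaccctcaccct
CYP3A5: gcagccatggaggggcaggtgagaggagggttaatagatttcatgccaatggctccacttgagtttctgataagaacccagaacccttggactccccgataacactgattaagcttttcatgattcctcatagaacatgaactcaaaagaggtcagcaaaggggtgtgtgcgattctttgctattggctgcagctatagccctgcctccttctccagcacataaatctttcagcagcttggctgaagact
GCGTG occurred 1 time in the CYP1A1 window, beginning 57 bases before the start, and was not among the letters of the CYP3A5 window. It occurred in 32.2% of all 35116 windows of the same length. The longer form TNGCGTG, in which N is any base and which contains GCGTG, occurred in 4.5% of all windows and in neither of these. These matches describe letters only.

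The libraries held 55300614 to 81646165 counts each, and 16004 genes passed edgeR's filter on low counts. The labelled cell type was checked against its markers. Of 12 microglial markers, AIF1, CX3CR1, P2RY12, TMEM119, ITGAM, PTPRC and SPI1 had 0 to 7 counts in a library and C1QA had none, whereas the lysosomal gene CD68, which many cell types express, averaged 20.5 CPM, the count scaled to the size of its library, and CSF1R and TREM2 averaged 0.73 and 0.72. Of 8 fibroblast and pericyte markers 7 were tested, with means from 1.97 CPM (PDGFRA) to 4548 (COL1A1) and 14737 (FN1), while COL3A1 had 0 to 6 counts. Of 8 hepatocyte markers 3 were tested, with means of 2.43 CPM (SERPINA1), 0.198 (HNF4A) and 0.154 (APOA1), while albumin (ALB) had 0 to 28 counts. ESR1, the gene of estrogen receptor alpha, had 0 to 2, while ESR2, the gene of estrogen receptor beta, had 12 to 46 and GPER1, that of a membrane estrogen receptor, 36 to 107. No source used here says whether both libraries of a condition stem from cultures grown apart, so the p-values measure the spread between these libraries, which may be technical. In bulk RNA, a change in how many cells express a gene and a change in the amount per cell cannot be told apart.

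Only part of the pathway was present as RNA. A gene was called detected when it had at least 10 counts in both libraries of at least 1 condition. POR was the most abundant, with 4217 to 7773 counts per library. CYP1B1 followed with 195 to 782 counts, CYP1A1 with 33 to 117 and CYP3A5 with 7 to 28. Per kilobase of transcript, the mean level over the 16 libraries was 36.7 CPM for POR, 1.4 for CYP1B1, 0.406 for CYP1A1 and 0.141 for CYP3A5. POR thus exceeded the mean of each P450, and it ranked above 84.8% of the tested genes by mean CPM, against 39.6% for CYP1B1, 20.8% for CYP1A1 and 8.75% for CYP3A5.

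The principal ketamine N-demethylases were absent or at trace level. CYP2B6 had 0 counts in all 16 libraries. CYP3A4 had 17 counts in all, in 7 libraries, with at most 4 in any of them: both libraries of (2S,6S)-HNK, E2+ketamine and ketamine and 1 of E2 held its counts. CYP2A6 had 16 counts in 6 libraries, with at most 5, and 11.7% of the 100-base windows of its transcript occur in relatives such as CYP2A7. The enzymes at either end of estrogen metabolism, CYP19A1 and SULT1E1, had 0 counts in every library. Of the 100-base windows of the SULT1E1 transcript, 18.5% also occur in another annotated gene. That gene lies on the same strand, overlaps 503 bases of the SULT1E1 exons themselves and has no row in the count table. A count of 0 over 1065958398 counts allows up to 0.00281 CPM (3 counts), and in a single library it allows 0.0367 to 0.0542 CPM; these limits cover counting error only. Of all counts from 1 to 9 in the table, 65.8% were even, so a count of 2 in this table need not be 2 independent fragments. No comparison was made for these 5 genes. Among near relatives in the CYP2A and CYP3A subfamilies, CYP2A7 had 8 counts in all, CYP2A13 had 1, CYP3A7 had 3 and CYP3A43 had 2.

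**Figure D1:**
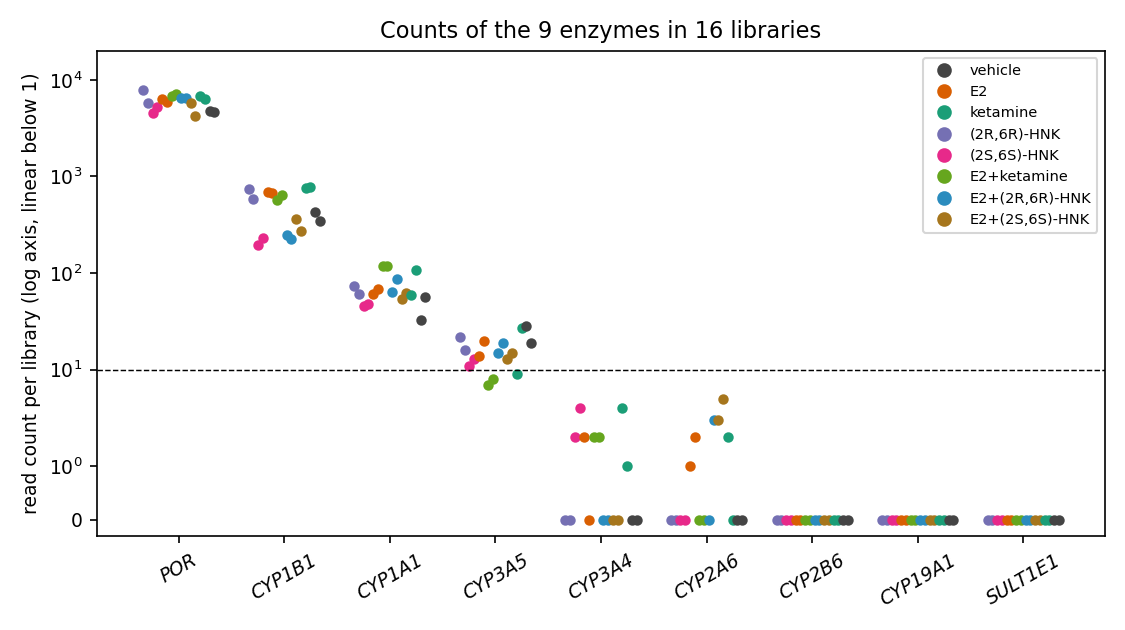
Raw count of each of the 9 enzymes in each of the 16 libraries, on an axis that is logarithmic above 1 and linear below, coloured by condition; the dashed line is the detection minimum of 10 counts. POR, CYP1B1 and CYP1A1 lie above it in every library, CYP3A5 straddles it, and CYP2B6, CYP19A1 and SULT1E1 lie at 0 throughout.

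CYP1B1, on chromosome 2 at 38294116 to 38337044 of GRCh37 (minus strand), separated the conditions into levels above and below vehicle. Levels normalised by TMM, edgeR's scaling between libraries, were 6.93 and 5.82 CPM in vehicle, 11.2 and 11.4 in E2, 8.97 and 9.42 in ketamine, 9.59 and 10.1 in (2R,6R)-HNK, and 3.56 and 3.87 in (2S,6S)-HNK. With E2 added, ketamine gave 9.56 and 11.1, (2S,6S)-HNK 4.47 and 4.23, and (2R,6R)-HNK 3.31 and 3.11. The libraries thus lay in a high set of 4 conditions, all above vehicle, and a low set of 3, all below it, with no overlap with the vehicle libraries. E2 was highest, with a mean of 11.3 ± 0.162 CPM (SD, n = 2). E2+(2R,6R)-HNK was lowest, with 3.21 ± 0.141. In the order of means, only E2+ketamine and (2R,6R)-HNK were neighbours whose libraries overlapped.

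Against vehicle, CYP1B1 was called in all 7 treatments in edgeR (quasi-likelihood test, p adjusted over every tested gene by Benjamini-Hochberg). It rose with E2 by 0.82 on the log2 scale (SE 0.10, 1.77-fold, adjusted p = 4.38e-10), with E2+ketamine by 0.69 (SE 0.10, adjusted p = 2.57e-08), with (2R,6R)-HNK by 0.63 (SE 0.10, adjusted p = 2.78e-07) and with ketamine by 0.53 (SE 0.10, adjusted p = 8.09e-06). It fell by 0.99 with E2+(2R,6R)-HNK (SE 0.11, edgeR adjusted p = 5.3e-11), by 0.78 with (2S,6S)-HNK (SE 0.11, adjusted p = 4.19e-08) and by 0.55 with E2+(2S,6S)-HNK (SE 0.11, adjusted p = 1.79e-05). As counted and with all libraries, none of these changes reached a log2 fold change of 1, while E2+(2R,6R)-HNK came to -1.11 without library 2 of vehicle and to -1.03 without its own library 1. The 7 comparisons with vehicle share the same 2 vehicle libraries. Between 59.3% and 71.7% of all tested genes were called in each of these comparisons, so that being called sets no gene apart. The direction of CYP1B1 was the same in all 7 under every alternative run, and without any single library. With 2 libraries against 2, an exact permutation test of a single gene cannot pass 0.05. Each gene's spread was pooled over 8 residual degrees of freedom and then moderated with information from all tested genes. The adjusted p-values and intervals rest on that moderated spread, and so in part on other genes.

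**Figure D2:**
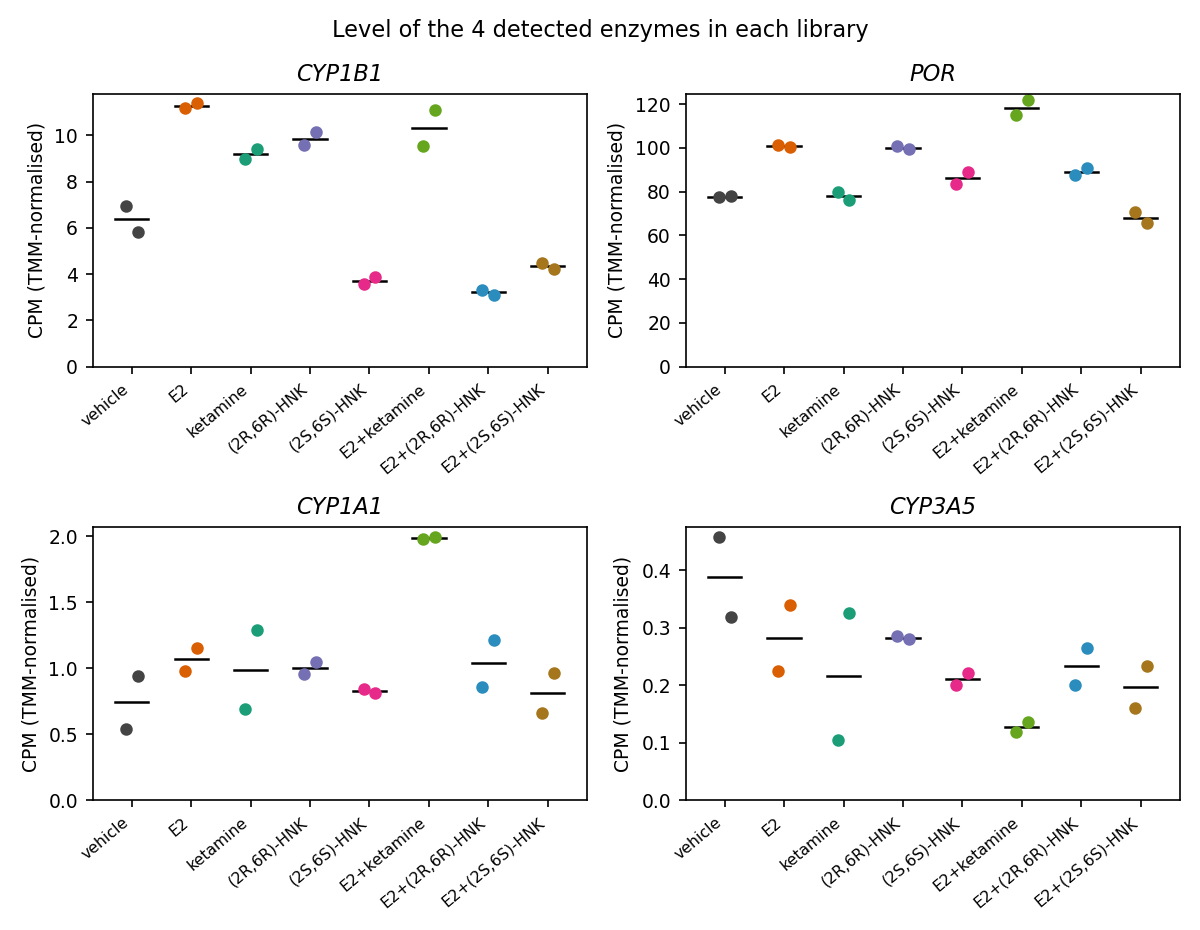
TMM-normalised level (CPM, linear axis from 0) of the 4 detected enzymes in each library of the 8 conditions; points are libraries and bars are the mean of 2. CYP1B1 splits into conditions with means of 9.19 to 11.3 CPM and conditions with means of 3.21 to 4.35 CPM with vehicle between them, and CYP1A1 stands highest in both E2+ketamine libraries.

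CYP1B1 lay above vehicle with one HNK enantiomer and below it with the other. At the matched dose and time, CYP1B1 was 1.4 higher on the log2 scale (SE 0.11, 2.65-fold, edgeR adjusted p = 1.96e-15) in (2R,6R)-HNK than in (2S,6S)-HNK, 2 molecules that differ only in the configuration of the same 2 carbons. It was 1.31 higher (SE 0.11, adjusted p = 1.42e-14) in ketamine, the parent drug, than in (2S,6S)-HNK. Ketamine and (2R,6R)-HNK did not differ past the threshold (log2 difference -0.10, 95% interval -0.29 to 0.09, adjusted p = 0.427). In the presence of E2 the order changed: E2+ketamine exceeded E2+(2R,6R)-HNK by 1.68 (SE 0.11, edgeR adjusted p = 8.59e-19) and E2+(2S,6S)-HNK by 1.24 (SE 0.10, adjusted p = 2.81e-15). E2+(2R,6R)-HNK was now the lower of the enantiomers, by 0.44 (SE 0.12, adjusted p = 0.0011). In all, 6 pairs of compounds were compared in this way. The share of all genes called was 45.4% for ketamine against (2R,6R)-HNK, 46.1% for ketamine against (2S,6S)-HNK and 43.5% between the enantiomers, and with E2 it was 52.0%, 66.8% and 54.0% in the same order.

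The difference that each drug made to CYP1B1 depended on whether E2 was present, by a test of that difference (an interaction term). (2R,6R)-HNK went with higher CYP1B1 in the absence of E2 and with CYP1B1 that fell by 1.81 against E2 alone (SE 0.11, edgeR adjusted p = 5.03e-20), an interaction of -2.44 on the log2 scale (SE 0.15, adjusted p = 9.03e-20). (2S,6S)-HNK went with lower CYP1B1 in both settings, which fell by 1.37 against E2 alone (SE 0.10, adjusted p = 1.75e-16), with an interaction of -0.59 (SE 0.15, edgeR adjusted p = 0.000712). With ketamine it was higher in the absence of E2, while E2+ketamine and E2 differed by -0.13 (95% interval -0.32 to 0.06, edgeR adjusted p = 0.278), with an interaction of -0.65 (SE 0.14, adjusted p = 0.000112). Against E2 alone, 50.3% of all genes were called for E2+ketamine, 55.1% for E2+(2S,6S)-HNK and 50.5% for its enantiomer with E2. A called interaction with ketamine was found for 37.5% of all genes, against 56.6% for (2R,6R)-HNK. The share for (2S,6S)-HNK was 65.1%. The interaction with (2R,6R)-HNK ran from -2.57 to -2.32 when any 1 of the 8 libraries in it was left out.

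**Figure D3:**
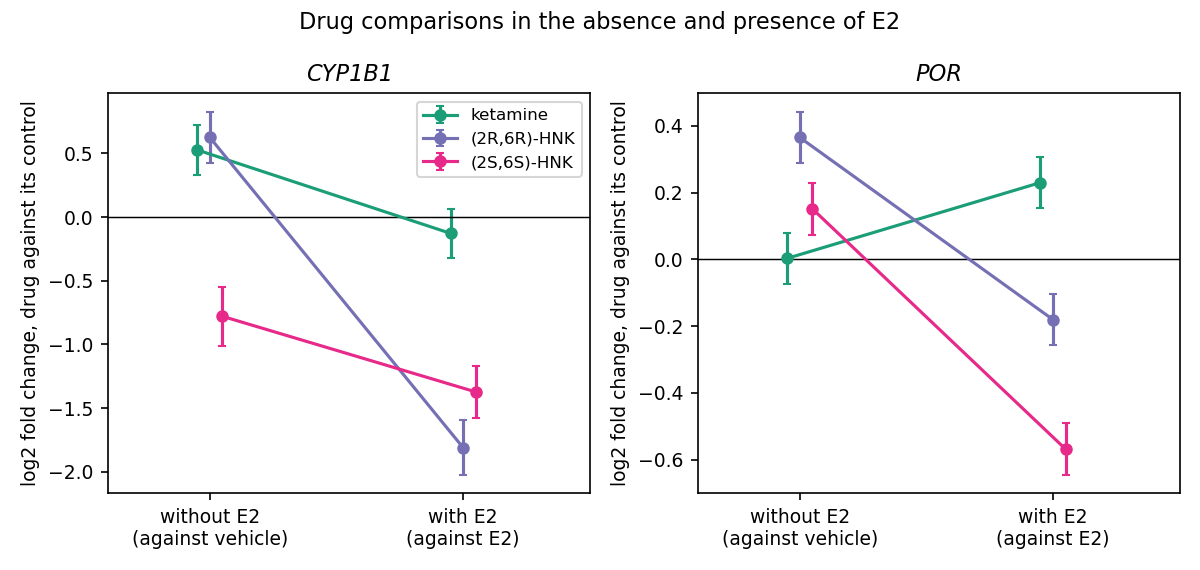
Log2 fold change of CYP1B1 (left) and POR (right) for each drug against vehicle and for the drug with E2 against E2, with 95% intervals. The CYP1B1 line of (2R,6R)-HNK drops from 0.63 to -1.81 and crosses 0, and the line of ketamine for POR is the one that slopes upward, from 0.00 to 0.23 as counted (-0.31 to -0.02 after a correction for GC content and length).

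Annotated exons of CYP1B1 overlap 677 bases of the antisense gene CYP1B1-AS1 on the other strand, and whether the counting used strand is not given in the sources used here. CYP1B1-AS1 itself had 0 to 14 counts in a library. No window of 100 bases of the CYP1B1 transcript occurred in another gene's transcript.

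POR, on chromosome 7 at 75528518 to 75616173 (plus strand), was measured most precisely. Its 2 libraries gave 77.5 and 78 CPM in vehicle, 101.4 and 100.6 in E2, 79.7 and 76.1 in ketamine, 100.7 and 99.6 in (2R,6R)-HNK, and 83.7 and 89.0 in (2S,6S)-HNK. With E2 added, ketamine gave 115 and 122, (2S,6S)-HNK 70.5 and 65.6, and (2R,6R)-HNK 87.5 and 90.8. E2+ketamine was the highest and E2+(2S,6S)-HNK the lowest, and the ketamine libraries enclosed those of vehicle. E2 and (2R,6R)-HNK overlapped as neighbours in the order of means, as did (2S,6S)-HNK and E2+(2R,6R)-HNK.

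As counted, POR was higher than vehicle in E2 (log2 0.38, SE 0.04, edgeR adjusted p = 2.81e-12), (2R,6R)-HNK (0.37), (2S,6S)-HNK (0.15), E2+ketamine (0.61, SE 0.04, 1.52-fold) and E2+(2R,6R)-HNK (0.20), but the direction turned in all 5 under the correction for GC content and length, to -0.03, -0.12, -0.33, -0.05 and -0.32. The corrected values in E2 and E2+ketamine were not called (edgeR adjusted p = 0.436 and 0.178). POR fell by 0.19 in E2+(2S,6S)-HNK (SE 0.04, edgeR adjusted p = 3.41e-05), and its value there was -0.41 under the same correction. With libraries scaled by their upper quartile, POR was -0.09 there and was not called (edgeR adjusted p = 0.051). In ketamine it was 0.00 as counted (95% interval -0.07 to 0.08, edgeR adjusted p = 0.956) and -0.31 under the correction. POR exons have a GC content of 60.8%, above 88.2% of the tested genes. The fold changes of all genes rose with GC content in each of the 7 comparisons, with a Spearman correlation across 14314 genes, which are not independent replicates, of 0.451 to 0.775. The correction removes any trend with GC content, of whatever source, and which set of POR values describes the cells was not tested. CYP1B1, with a GC content of 45.0%, kept its direction and its call in all 7 under the correction, at 1.06 in E2, 1.10 in E2+ketamine, 0.92 in (2R,6R)-HNK, 0.71 in ketamine, -0.40 in E2+(2S,6S)-HNK, -0.51 in (2S,6S)-HNK and -0.74 in E2+(2R,6R)-HNK.

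**Figure D4:**
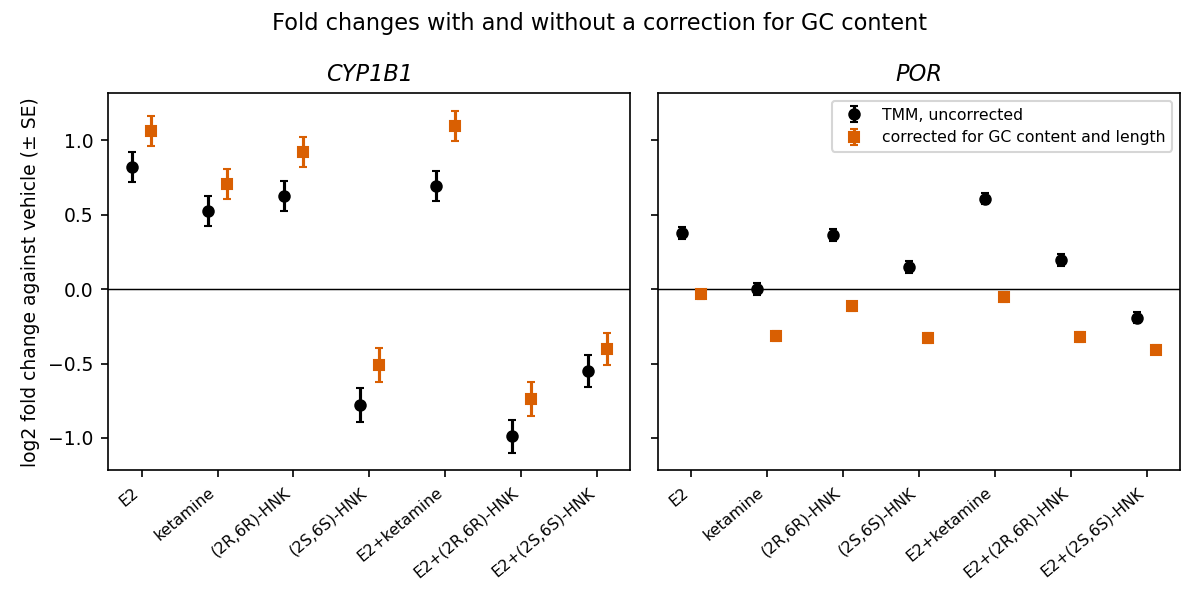
Log2 fold change against vehicle, with its SE, of CYP1B1 (left) and POR (right) as counted (TMM, black circles) and after the correction for GC content and length (orange squares). CYP1B1 stays on the same side of 0 in all 7 treatments, and POR lies below 0 in every one after the correction, at adjusted p of 0.05 or above in E2 and E2+ketamine.

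Between compounds, some differences in POR held under the correction and others did not. (2R,6R)-HNK exceeded (2S,6S)-HNK by 0.21 on the log2 scale (SE 0.04, edgeR adjusted p = 6.88e-06, and 0.21 corrected) and ketamine differed from (2R,6R)-HNK by -0.36 (-0.20 corrected). With E2, ketamine exceeded (2R,6R)-HNK by 0.41 (0.27 corrected) and (2S,6S)-HNK by 0.80 (SE 0.04, edgeR adjusted p = 2.71e-24, and 0.35 corrected), and (2R,6R)-HNK exceeded (2S,6S)-HNK by 0.39 (0.08 corrected). Ketamine lay below (2S,6S)-HNK by a log2 difference of -0.15, which became 0.02 on correction. For POR, the interaction of E2 with ketamine was 0.23 (SE 0.05, edgeR adjusted p = 0.000538), that with (2R,6R)-HNK -0.55 (SE 0.05, adjusted p = 1.54e-12) and that with (2S,6S)-HNK -0.72 (SE 0.05, adjusted p = 1.43e-16). Under the correction these were 0.30, -0.17 and -0.04, and the last was no longer called (edgeR adjusted p = 0.5).

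CYP1A1, on chromosome 15 at 75011883 to 75017877 (minus strand), stood out in 1 condition. The 2 libraries of E2+ketamine held 117 counts each, or 1.98 and 2.00 CPM, and every other library lay below them. Vehicle gave 0.539 and 0.940 CPM, E2 0.977 and 1.15, ketamine 0.689 and 1.29, (2R,6R)-HNK 0.959 and 1.05, and (2S,6S)-HNK 0.839 and 0.814. E2+(2R,6R)-HNK gave 0.858 and 1.21, and E2+(2S,6S)-HNK gave 0.662 and 0.964. Among the 7 conditions other than E2+ketamine, neighbours in the order of means overlapped throughout, and no order among them was resolved. CYP1A1 rose in E2+ketamine against vehicle by 1.43 on the log2 scale (SE 0.29, 2.69-fold, edgeR adjusted p = 1.51e-05), a comparison in which 11.0% of all genes passed both the threshold and a log2 fold change of 1. This value was 1.14 (edgeR adjusted p = 0.000369) under the GC correction and ran from 1.08 to 1.87 without single libraries.

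E2+ketamine also exceeded E2 alone in CYP1A1 by 0.90 (SE 0.27, edgeR adjusted p = 0.0045), E2+(2R,6R)-HNK by 0.94 (SE 0.27, adjusted p = 0.00248) and E2+(2S,6S)-HNK by 1.30 (SE 0.28, adjusted p = 4.37e-05). The first was not called without library 1 of E2 (edgeR adjusted p = 0.0591), nor the second without library 1 of E2+(2R,6R)-HNK (adjusted p = 0.0723). The other 6 treatments gave CYP1A1 values against vehicle of 0.12 to 0.53 that missed the threshold, E2 being 0.53 (95% interval -0.08 to 1.14, edgeR adjusted p = 0.13) and ketamine 0.42 (95% interval -0.18 to 1.01, adjusted p = 0.227). The interaction of E2 with ketamine was 0.48 (95% interval -0.33 to 1.29, edgeR adjusted p = 0.386). A response of E2+ketamine beyond the sum of the log2 changes of both treatments was thus not resolved, and a sum on the CPM scale was not tested. Without library 2 of vehicle, the E2, (2R,6R)-HNK and E2+(2R,6R)-HNK values passed the threshold as well, at 0.98, 0.89 and 0.94 (edgeR adjusted p = 0.0281, 0.0432 and 0.0299). Without library 1 of ketamine, the ketamine value did so at 0.80 (edgeR adjusted p = 0.0337).

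**Figure D5:**
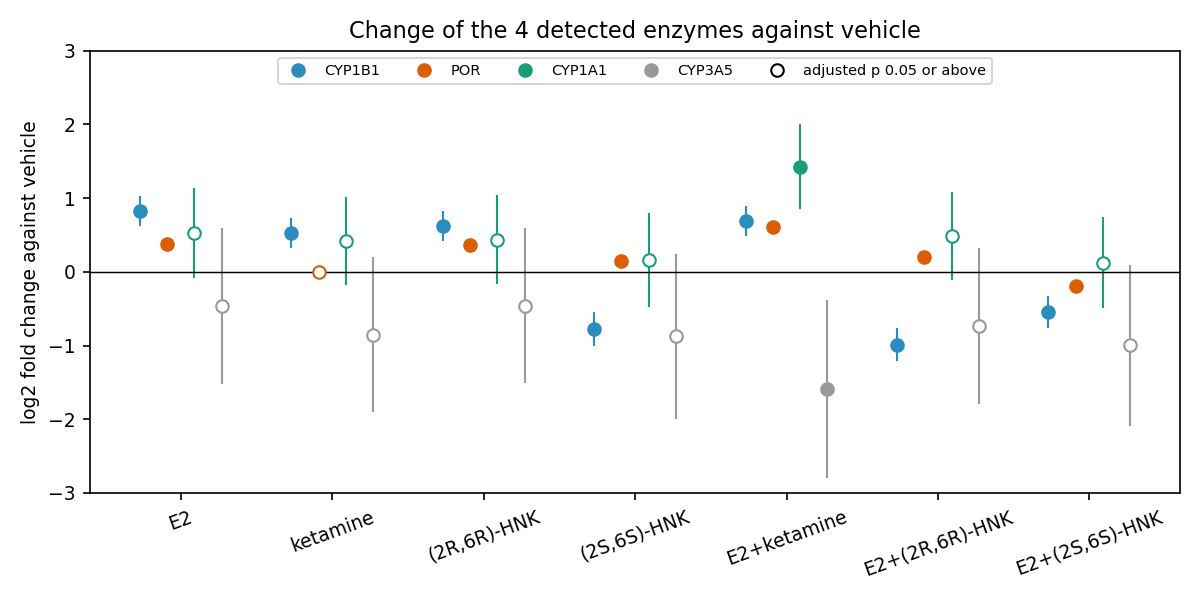
Log2 fold change against vehicle of the 4 detected enzymes in the 7 treatments, with 95% intervals; open symbols have an adjusted p of 0.05 or above. CYP1A1 and CYP3A5 have filled symbols in E2+ketamine only, at 1.43 and -1.60, and the intervals of CYP3A5 are the widest. Those of POR are about the size of its symbols.

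CYP3A5, on chromosome 7 at 99245817 to 99277619 (minus strand), was near the detection limit. Its counts in the 2 libraries were 28 and 19 in vehicle, 14 and 20 in E2, 9 and 27 in ketamine, 22 and 16 in (2R,6R)-HNK, and 11 and 13 in (2S,6S)-HNK. With E2 added, ketamine gave 7 and 8, (2S,6S)-HNK 13 and 15, and (2R,6R)-HNK 15 and 19. Vehicle was highest by mean and E2+ketamine lowest, and the conditions between them overlapped as neighbours throughout. CYP3A5 fell by 1.60 on the log2 scale in E2+ketamine (SE 0.60, edgeR adjusted p = 0.015). The call was lost under the GC correction (-0.85, edgeR adjusted p = 0.244), with DESeq2 on the groups compared (-1.58, adjusted p = 0.0928), and without either E2+ketamine library (edgeR adjusted p = 0.0822 and 0.0542) or library 1 of vehicle (adjusted p = 0.12). The other 6 treatments gave -1.0 to -0.46 and were not called, but ketamine was called without its library 2 (-1.87, edgeR adjusted p = 0.0286). Of the 100-base windows of its transcript, 0.8% were shared with CYP3A4.

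Counted together, 2 of the 4 tested enzymes were called against vehicle in E2 (62.5% of all genes), 1 in ketamine (59.3%), 2 in (2R,6R)-HNK (66.6%), 2 in (2S,6S)-HNK (67.9%), 4 in E2+ketamine (71.7%), 2 in E2+(2R,6R)-HNK (69.7%) and 2 in E2+(2S,6S)-HNK (59.7%). As counted, a log2 fold change of at least 1 with a call was reached in E2+ketamine alone, by CYP1A1 and CYP3A5, whereas under the GC correction CYP1A1 and CYP1B1 reached it there (1.14 and 1.10), CYP1B1 did in E2 (1.06) and CYP3A5 did not. The correction left 344 genes past both limits in E2+ketamine and 118 in E2, of the 14314 genes with a known GC content. Of all genes, the share that passed both limits was 1.81% in E2, 3.56% in ketamine, and for the enantiomers 3.75% (2R,6R) and 9.08% (2S,6S). With E2 added it was 11.0% with ketamine, 5.85% with (2S,6S)-HNK and 11.5% with its enantiomer.

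Other genes of the pathway were followed in lists chosen with earlier results known. Their counts of called genes stand beside the 62.5% of all genes called in E2, 59.3% in ketamine and 71.7% in E2+ketamine, and nothing is read from them about a list as a whole. Under the GC correction, 5597, 7086 and 7551 of the 14314 genes with a known GC content were called in the same order. Of 17 further P450s of families 1 to 3, 7 were tested. In E2+ketamine 1 rose and 1 fell, and in ketamine 1 rose and none fell. CYP2S1, an extrahepatic P450, was higher in 6 of the 7 treatments, by up to 0.72 in E2+ketamine, but lay below vehicle in 4 of 7 under the GC correction. CYP2R1, a vitamin D hydroxylase, was called lower in 5 of 7, where all 7 values ran from -0.89 to -0.36, and in 0 of 7 after the correction. CYP1A2, the nearest relative of CYP1A1, had 13 to 57 counts per library and was called in none of the 7, with values from -0.60 to 0.30.

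Of 11 electron donors and P450 partners, all 11 were tested, with 4 higher and 4 lower in E2, 3 and 6 in ketamine, and 5 and 4 in E2+ketamine. Under the GC correction these became 5 and 2, 5 and 2, and 6 and 3. FDXR, which feeds electrons to the mitochondrial P450s, rose in all 7 treatments, by 0.64 in E2 to 1.25 in E2+ketamine, and stayed called in all 7 under the 3 other scalings tried (DESeq2 size factors, upper quartile and the GC correction), although its values under the last were smaller, at 0.25 to 0.62. CYB5R4 was lower in all 7, from -1.10 to -0.35, with 1 call left after the GC correction. CYB5R3, which reduces cytochrome b5, was higher in all 7 as counted and lower in 6 of 7 under the correction. PGRMC1, a heme-binding partner of P450s, was lower in all 7 and turned in 3 of 7 under it.

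Of 23 genes of estrogen synthesis and interconversion, 17 were tested, with 5 higher and 5 lower in E2, 4 and 3 in ketamine, and 5 and 4 in E2+ketamine. The corrected numbers were 6 and 0, 8 and 0, and 7 and 0. HSD17B14, which oxidizes E2 to estrone, rose in all 7, by 0.56 to 1.13, and by 0.22 to 0.53 under the GC correction, with all 7 calls kept. HSD3B7, a bile acid synthesis enzyme, rose by 0.68 to 1.11 as counted and by 0.18 to 0.60 under it, also with 7 calls. HSD17B4, which also oxidizes E2, was lower in all 7 as counted (-0.88 to -0.27), and HSD17B12 likewise (-0.67 to -0.39), but under the correction they lay above vehicle in 5 and 4 of 7.

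Of 31 conjugating genes, 15 were tested, with 7 higher and 3 lower in E2, 6 and 2 in ketamine, and 10 and 4 in E2+ketamine, and after the correction 4 and 3, 6 and 3, and 7 and 4. SULT2B1, a hydroxysteroid sulfotransferase, rose in all 7 (0.60 to 1.45), as did GSTT1, a glutathione transferase (0.23 to 0.98), and both stayed above vehicle under every scaling. Under the GC correction SULT2B1 was called in 5 of 7 (0.23 to 0.93) and GSTT1 in 6 of 7 (0.03 to 0.72). UGDH, which makes the sugar donor of the glucuronosyltransferases, fell in all 7 (-0.76 to -0.34, and -0.35 to -0.15 under the GC correction) and stayed called under every scaling. UGT2B7 was called lower in 5 of 7 as counted, but its value lay above vehicle in 7 of 7 under the GC correction and in 1 of 7 under each of the other scalings.

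Of 23 transcriptional regulators of these P450s, 18 were tested, with 7 higher and 6 lower in E2, 7 and 5 in ketamine, and 8 and 7 in E2+ketamine, and 5 and 4, 6 and 6, and 6 and 6 once corrected. NR3C1, the glucocorticoid receptor, and NFE2L2, the oxidative stress factor NRF2, fell in all 7 (-1.07 to -0.40 and -0.94 to -0.56). Both kept their direction and calls under every scaling, at -0.49 to -0.12 and -0.49 to -0.18 under the GC correction. CEBPB was called higher in 6 of 7 and lay below vehicle in 4 of 7 under the GC correction. AHR and its repressor AHRR were named after their values were seen: AHR was lower in all 7 as counted (-0.73 to -0.25) but above vehicle in 3 of 7 under the GC correction, and AHRR was higher in all 7 (0.25 to 0.64) and in 6 of 7 under it. CYP1B1 was above vehicle in 4 of these treatments and below it in 3.

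Over the 16 libraries, log2 CPM of POR correlated with that of CYP1A1 at Pearson r = 0.69 and of CYP1B1 at 0.53. CYP1A1 and CYP1B1 correlated at 0.38, and CYP3A5 with the other detected enzymes at -0.28 to -0.01. These are descriptions over libraries that share conditions, depth and the GC trend. Among 10374 genes of at least 5 CPM on average, the 3 most like CYP1B1 were C1orf216, HOXB2 and PLEKHG4, each at r = 0.96 over 16 libraries. For POR they were NCLN, TMEM201 and DGKZ at 0.99. For CYP1A1 they were PVT1 at 0.87, FLT4 at 0.83 and STEAP3 at 0.83, and for CYP3A5 they were NSFP1 at 0.78, METTL16 at 0.76 and HIF1AN at 0.75.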

How the data were processed

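RNA-seq was performed on HMC3 cells under 8 conditions with 2 libraries each. The authors prepared the libraries with the Ovation RNA-seq system, sequenced paired 100-base reads, aligned them to hg19 and counted uniquely mapped, non-discordant pairs on gene models. The values the authors deposited are raw counts per gene, without normalization. The submitters' processing notes name TopHat2 2.0.14, Bowtie2 2.2.6 and featureCounts 1.4.6, and the study's methods give other aligner versions. Strandedness is not given in the sources used here.

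Analyses were run in R 4.3.3. All 19 comparisons were drawn from a single quasi-likelihood model (edgeR 4.0.16) over the 8 conditions, after filterByExpr (16004 of 25370 genes kept) and TMM, with Benjamini-Hochberg adjustment over all genes within a comparison. A gene was called at an adjusted p under 0.05. The study used DESeq2 (default parameters), which is run here as an alternative (version 1.42.0). The scripts were tested on simulated data. Depth was 55300614 to 81646165 counts per library.

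GENCODE models lifted to GRCh37, whose chromosome sequences hg19 shares, supplied positions, lengths and GC content. Symbols of 21539 genes matched them, and 89.4% of the tested genes had a GC content. To correct for GC content and length, a loess trend (span 0.5) was fitted within each library and entered as an offset. Both were taken over all annotated exons of a gene together, which can exceed the transcript counted. These exons span 6222 bases for POR and 9815 for CYP3A5, against 2446 and 1720 in their canonical transcripts. Levels per kilobase use the canonical transcript.

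The enzymes, the gene lists and the rules below were chosen with earlier results of these data known. Named were all 9 enzymes, relatives of near-identical sequence, the 3 genes most correlated with each detected enzyme, and from each other list up to 2 genes with the highest and 2 with the lowest mean log2 fold change over the 7 comparisons with vehicle, if at or above 1 CPM and called in that direction in at least 4. A few genes that these rules or lists name are not reported here. Alternatives were DESeq2 (all 16 libraries, or the compared groups alone), edgeR restricted to the compared groups, DESeq2 size factors, upper-quartile scaling, no filter, at least 10 counts in every library, halved counts, the GC and length correction, the replicate block, both together, and each library left out in turn.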

Additional observations from a re-analysis of the deposited data

Results flagged for a closer look

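In 6 cases the change that a drug made to an enzyme's level differed between cells with and without E2, by a test of the interaction in edgeR's quasi-likelihood fit. For CYP1B1 the interaction was -0.65 on the log2 scale with ketamine (SE 0.14, adjusted p = 0.000112), -2.44 with (2R,6R)-HNK (SE 0.15, adjusted p = 9.03e-20) and -0.59 with (2S,6S)-HNK (SE 0.15, adjusted p = 0.000712). For POR it was 0.23 with ketamine (SE 0.05, edgeR adjusted p = 0.000538), -0.55 with (2R,6R)-HNK (SE 0.05, adjusted p = 1.54e-12) and -0.72 with (2S,6S)-HNK (SE 0.05, adjusted p = 1.43e-16). The interaction of POR with (2S,6S)-HNK was -0.04 (edgeR adjusted p = 0.5) once GC content and length were corrected for, and the other 5 kept their direction and their call. Their corrected values were -0.67, -2.72 and -0.95 for CYP1B1 in the order above, and 0.30 and -0.17 for POR with ketamine and (2R,6R)-HNK. Such interactions were common, since 37.5% to 65.1% of all tested genes had one. With 2 libraries per condition, no single library could be tested as standing apart.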

How the results depend on the processing

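CYP3A5 and CYP1A1 had few counts, as few as 7 and 33 in a library, and 2 libraries per condition leave the spread to be pooled over conditions. CYP1B1 kept its direction and its side of the threshold in all 88 fits without 1 library and all 171 other fits, and in 36 of 38 with the GC and length correction. The exceptions were E2+ketamine against E2, which was not called either way and became 0.035 (also 0.035 with the replicate block). The cause of the changes below was not tested.

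Under the correction, POR against vehicle became -0.034 in E2, -0.31 in ketamine, -0.12 in (2R,6R)-HNK, -0.33 in (2S,6S)-HNK, -0.051 in E2+ketamine and -0.32 in E2+(2R,6R)-HNK. POR became 0.015 in ketamine against (2S,6S)-HNK and -0.017 in E2+ketamine against E2. These POR values were the same with the correction and the replicate block together. CYP3A5 became 0.024 in E2 and 0.15 in (2R,6R)-HNK (0.14 with the block), against vehicle. CYP1A1 became -0.033 in (2S,6S)-HNK against vehicle (-0.018 with the block) and 0.10 in ketamine against (2R,6R)-HNK (0.060 with the block). None of these CYP3A5 and CYP1A1 values was called. The number of enzymes called became 1 in E2, 2 in ketamine and 2 in E2+ketamine against vehicle, 1 in ketamine against (2S,6S)-HNK, 1 in E2+ketamine against E2 and 1 for the interaction of E2 with (2S,6S)-HNK, with the correction alone or with the block. The correction tested the 14314 of 16004 genes with a GC content and took the calls from 10007 to 5597 in E2, from 10656 to 6661 in (2R,6R)-HNK and from 11476 to 7551 in E2+ketamine against vehicle, from 8647 to 4104 in E2+(2R,6R)-HNK against E2+(2S,6S)-HNK, from 7382 to 6058 in ketamine against (2S,6S)-HNK, from 8051 to 5174 in E2+ketamine against E2 and from 10418 to 5807 for the interaction with (2S,6S)-HNK. Those past a log2 fold change of 1 in E2+ketamine went from 1765 to 344.

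With upper-quartile scaling, which called 9693 of all 16004 genes in ketamine and 9441 in E2+(2S,6S)-HNK, 2 enzymes were called in ketamine, where POR was 0.09 (edgeR adjusted p = 0.0443), and 1 in E2+(2S,6S)-HNK, where POR was -0.09 (adjusted p = 0.051). The median of all genes moved by 0.105 there, and the share of higher calls from 40.2% to 54.3%, and in ketamine from 45.2% to 55.6%.

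Without single libraries, 1 to 2 enzymes were called in ketamine against vehicle, 1 to 2 in ketamine against (2S,6S)-HNK and 1 to 2 in E2+ketamine against E2, where the fits that changed the number called 8555 to 8589, 6045 to 6179 and 6807 of all genes. It was 2 to 3 in E2, (2R,6R)-HNK and E2+(2R,6R)-HNK and 3 to 4 in E2+ketamine against vehicle, and 2 to 3 in E2+ketamine against E2+(2R,6R)-HNK, where 9202 to 9321, 9930 to 10084, 10399 to 10439, 10856 to 10973 and 7224 to 7443 of all genes were called. POR in ketamine against vehicle ran from -0.031 to 0.035. CYP1A1 ran from -0.10 to 0.87 in ketamine, from -0.19 to 0.61 in (2S,6S)-HNK and from -0.23 to 0.57 in E2+(2S,6S)-HNK against vehicle, from -0.54 to 0.37 in ketamine against (2R,6R)-HNK, from -0.26 to 0.64 in ketamine against (2S,6S)-HNK and from -0.31 to 0.19 in E2+(2R,6R)-HNK against E2.

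Libraries with the same replicate number did not deviate together (correlations of -0.03 to 0.05 over 28 pairs of conditions). No effect shared by replicate number was thus seen, which cannot show whether the numbers mark cultures handled together. The replicate block alone changed no call of an enzyme, with 4 called in E2+ketamine against vehicle as before and 11448 calls over all genes there. With at least 20 counts required in both libraries of a condition 3 enzymes were detected, and with at least 3 counts 5 were.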
